A study of Mus musculus with 36 samples.

Results

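The genes of the Arp2/3 complex and of its activators of the WASP/WAVE family were followed in mouse keratinocytes with and without plakophilin 4 (PKP4), an armadillo protein of adherens junctions. The members were the 10 rows of the deposited count table that carry the symbols Actr2, Actr3, Arpc1a, Arpc1b, Arpc2, Arpc3, Arpc4, Arpc5, Wasl and Wasf2, out of 55358 genes. All 10 passed the filter on low counts, as did 15114 genes in all. Cells of 3 kinds, named WT, PKP4-KO and Rescue, were kept in low calcium medium (LCM) or in high calcium medium (HCM, LCM with calcium chloride added), which induces keratinocyte differentiation, and RNA was taken after 24 h or after 72 h. This made 12 groups of 3 libraries, 36 in all. WT and PKP4-KO cells were primary keratinocytes isolated from newborn Pkp4+/+ and Pkp4-/- pups on the C57BL/6J background. The Pkp4-/- pups carry an allele that lacks a critical Pkp4 exon in all cells. Rescue cells were PKP4-KO cells, so that they carry the same deletion, which were transduced with a lentivirus encoding human PKP4 fused to EGFP and selected with puromycin as a stable line. No WT or PKP4-KO group analysed here is labelled as transduced, and vector, selection and PKP4 expression cannot be told apart in Rescue cells. Each group carries the replicate numbers 1 to 3, but no label says that they were separate cultures or pups, so that the tests measure the spread between these libraries, which may be technical.

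The Arp2/3 complex nucleates branched actin filaments. Its actin-related subunits ARP2 (Actr2) and ARP3 (Actr3) stand in for the first actin subunits of the new branch, and the ARPC subunits hold them together and dock them on the side of an existing filament. By itself the complex is almost inactive. It is switched on by nucleation-promoting factors such as N-WASP (Wasl), a target of CDC42, and WAVE2 (Wasf2), the filament-building end of a larger complex that responds to RAC1. In epithelial cells this machinery is known for lamellipodia, endocytosis and the actin at cell-cell junctions. The question put to these libraries was whether the RNA of the machinery differs with PKP4, calcium and time in culture.

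In GRCm39, Actr2 lies at chr11:20012300-20063049, Actr3 at chr1:125320633-125363637 and Wasl at chr6:24613804-24665091, all on the minus strand. Wasf2 lies at chr4:132844495-132927067, Arpc2 at chr1:74272190-74307373, Arpc3 at chr5:122529941-122552247, Arpc4 at chr6:113355059-113367409 and Arpc5 at chr1:152642292-152651348, on the plus strand. Arpc1a at chr5:145020600-145045572 and Arpc1b at chr5:145051025-145067515, which encode alternative forms of 1 subunit, are neighbours on the plus strand with 5452 bp between them. Arpc1a, Arpc1b, Arpc3, Arpc4, Actr3 and Wasf2 overlap genes on the other strand, among them Kpna7, Pdap1 and Tada3. The libraries were strand-specific, but the strand setting of the counting is not given in the sources used here. Arpc3, Arpc4, Wasl and Wasf2 overlap genes on their own strand too, Gm42829, Ttll3, Gm42856 and Mir7017, which a strand setting does not separate. What these overlaps do to the counts was not tested. Actr3 also has a processed pseudogene in the table with which its reads could be shared.

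The promoter stretches of 3 of these genes are shown, those of the actin-like pair Actr2 and Actr3 and of the activator Wasl. Actr2 and Wasl were called lower in PKP4-KO cells in all 4 culture conditions and Actr3 in none, and the difference between them was not tested. Arpc1a, whose stretch is not shown, was called lower in all 4 as well. Each stretch is the 250 bases before the outermost annotated gene start in GRCm39, 5' to 3' on the gene's own strand. Matches to the letters CCAAT or their reverse complement ATTGG are in capitals.
Actr2 (chr11:20063050-20063299, minus strand): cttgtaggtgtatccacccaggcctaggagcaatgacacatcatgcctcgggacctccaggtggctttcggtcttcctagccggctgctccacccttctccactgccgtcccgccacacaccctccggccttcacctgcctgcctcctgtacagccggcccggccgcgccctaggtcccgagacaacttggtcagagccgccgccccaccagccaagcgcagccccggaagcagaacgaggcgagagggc
Wasl (chr6:24665092-24665341, minus strand): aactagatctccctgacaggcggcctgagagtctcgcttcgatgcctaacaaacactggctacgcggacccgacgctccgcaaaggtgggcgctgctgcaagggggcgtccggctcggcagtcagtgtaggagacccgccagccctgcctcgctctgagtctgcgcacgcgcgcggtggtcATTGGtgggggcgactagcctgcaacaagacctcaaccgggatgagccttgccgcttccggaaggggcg
Actr3 (chr1:125363638-125363887, minus strand): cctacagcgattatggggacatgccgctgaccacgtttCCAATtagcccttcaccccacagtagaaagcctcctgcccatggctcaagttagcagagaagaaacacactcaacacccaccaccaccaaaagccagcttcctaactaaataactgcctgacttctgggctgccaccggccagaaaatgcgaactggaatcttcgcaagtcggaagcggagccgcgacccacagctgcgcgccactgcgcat
The stretches of Actr2 and Wasl held 66.8% and 65.6% G or C, that of Actr3 held 55.6% and that of Arpc1a 52.0%. The median was 51.2% over 21603 promoters of the same length, and the 10 members ran from 39.2% (Arpc2) to 74.4% (Arpc5). A relation of this content to the calls was not tested. The letters were searched on both strands, and none of the motifs holds another. CCAAT was found in Arpc5, Actr3 and Wasl, 3 of the 10 members, and in 35.9% of all promoters. The GC box letters GGGCGG, not capitalised, were found in 4 members (Arpc1b, Arpc5, Actr2 and Wasf2) and in 30.2% of all promoters, and GGAATG, the core recognised by TEAD factors, in Arpc2 and Wasf2 and in 12.4%. The AP-1 letters TGACTCA or TGAGTCA were in none of the 10 windows and in 4.1% of all promoters, and the CArG box bound by serum response factor was in that of Arpc4 and in 1.4%. These matches describe the letters of the windows and were not tested for binding.

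The total per library lay between 13602728 and 22467187 counts, which gave at least 173 counts for every member in every library. Levels are given as CPM, the count relative to the total of the library scaled with TMM factors, and these factors were 0.48 to 0.55 in the 3 PKP4-KO libraries at 72 h HCM against 0.71 to 1.39 elsewhere. The libraries also differed in the share of counts that fell on genes longer than 6000 bp. It was 6.56% to 7.08% at 72 h HCM in PKP4-KO, 8.98% to 13.8% in WT and 17.0% to 18% in Rescue cells, where ribosomal protein genes took 24.3% to 26.6%, 14.2% to 20% and 9.63% to 10.8%. In 6 libraries of 6 groups it was over 2.5 percentage points below the median of their group: PKP4-KO at 24 h HCM replicate 3 and at 24 h LCM replicate 1, WT at 24 h HCM replicate 2 and at 72 h HCM replicate 3, and Rescue at 24 h LCM replicate 3 and at 72 h LCM replicate 2. Wasl and Wasf2, with 6165 and 6258 bp in the table, are long there, and Actr2 and Arpc1b have 5204 and 5115 bp, whereas Arpc2 has 2033 bp. In the annotation, the canonical transcripts of Wasl, Wasf2, Actr2, Arpc1b and Arpc2 are shorter, with 4435, 5642, 3660, 1585 and 1404 bp. Arpc3, with 2762 bp in the table and a canonical transcript of 905 bp, was the highest of its group in each of the 6 libraries. Results are therefore given also without the 6 libraries and with offsets that remove a trend with gene length in each library. The offsets use the lengths of the table. The part of these differences in the results was not tested further. Pkp4 itself was at 8.24 to 9.65 CPM in PKP4-KO and 41.5 to 48.9 in WT at 24 h HCM, a log2 fold change of -2.33, and between -2.98 and -1.86 in the other 3 conditions. In Rescue cells, whose human transgene is not part of this row, it was at 6.52 to 11.9 CPM over the 4 conditions. Its log2 fold changes against WT were -2.96 to -2.03. Against PKP4-KO it was called higher at 72 h HCM, with 0.38. It was not called against PKP4-KO in the other conditions. Keratinocyte markers summed to 22913 to 69892 CPM in every library and those of differentiated keratinocytes to 41.4 to 8543 CPM, while those of fibroblasts summed to at most 11.4, of endothelium to at most 5.41, of melanocytes to at most 2.09 and of leukocytes to at most 1.30 CPM. The melanocyte marker Tyr was at 0 in all libraries. At 72 h HCM the markers of differentiated keratinocytes summed to 7684 to 8543 CPM in PKP4-KO, 835 to 1047 in WT and 493 to 689 in Rescue cells, and at 72 h LCM to 992 to 1822, 72.6 to 93.4 and 146 to 167. At 24 h the sums were 169 to 288, 124 to 135 and 211 to 303 CPM in HCM and 50.1 to 90.6, 41.4 to 52.2 and 71.8 to 91.6 in LCM, in the same order of genotypes. Their part in the results on the members was not tested. In these whole cultures, fewer cells of a type and less RNA per cell cannot be told apart.

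**Figure D1:**
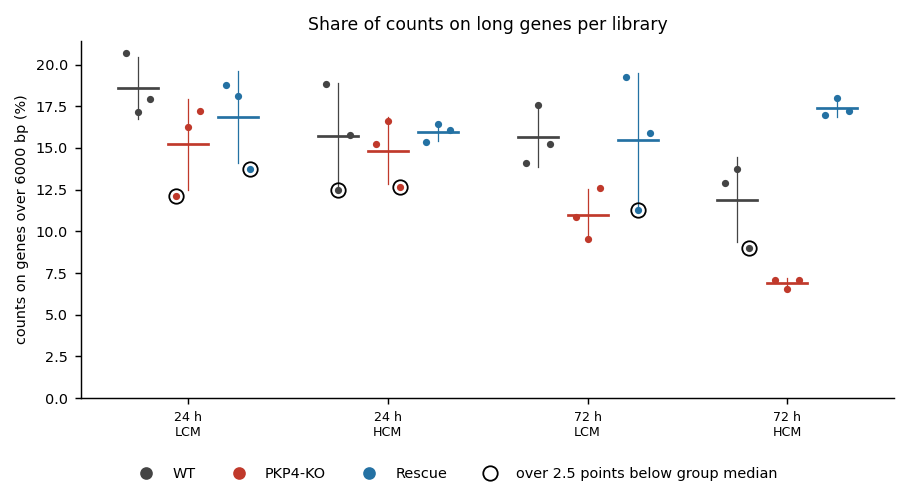
Share of counts on genes longer than 6000 bp (y axis, percent) in each library of the 12 groups (x axis, culture condition; grey WT, red PKP4-KO, blue Rescue). The 6 circled libraries lie over 2.5 percentage points below the median of their group, and the 3 PKP4-KO libraries at 72 h HCM are the lowest.

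Per length as given in the table, Arpc2 was the most abundant member in every group. At 24 h HCM in WT cells it reached 238 ± 14.6 CPM per kb (mean ± SD, n = 3), followed by Arpc5 with 103 ± 6.38, Arpc3 with 102 ± 41.0, Arpc1a with 78.8 ± 5.54, Actr3 with 77.6 ± 16.6, Arpc4 with 71.3 ± 3.41, Actr2 with 43.3 ± 12.6 and Arpc1b with 24.5 ± 6.96. From Arpc5 to Arpc4 the libraries of each gene overlapped with those of the next, whereas Arpc2, Actr2 and Arpc1b did not overlap with their neighbours. The activators Wasf2 and Wasl were the least abundant there, with 11.5 ± 0.669 and 10.9 ± 3.37, and overlapped. This order depends on the lengths of the table. Canonical transcripts are shorter by unlike amounts, with 905 bp in place of 2762 for Arpc3, 1585 in place of 5115 for Arpc1b and 1404 in place of 2033 for Arpc2. Levels were not computed with them. Over the 12 group means the members also differed in how much they varied. Wasl spanned 2.69 on the log2 scale and Arpc1b 1.77, whereas Arpc4, which with Arpc2 forms the core of the complex, spanned 0.59. The SD of the group means put Wasl at percentile 66.6 of all tested genes, Actr2 at 43.5, Arpc1b at 41.5, Arpc3 at 34.9 and Arpc1a at 27.9. Actr3, Arpc5, Arpc2, Wasf2 and Arpc4 varied least, at percentiles of 7.82, 6.07, 4.26, 3.57 and 0.549.

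**Figure D2:**
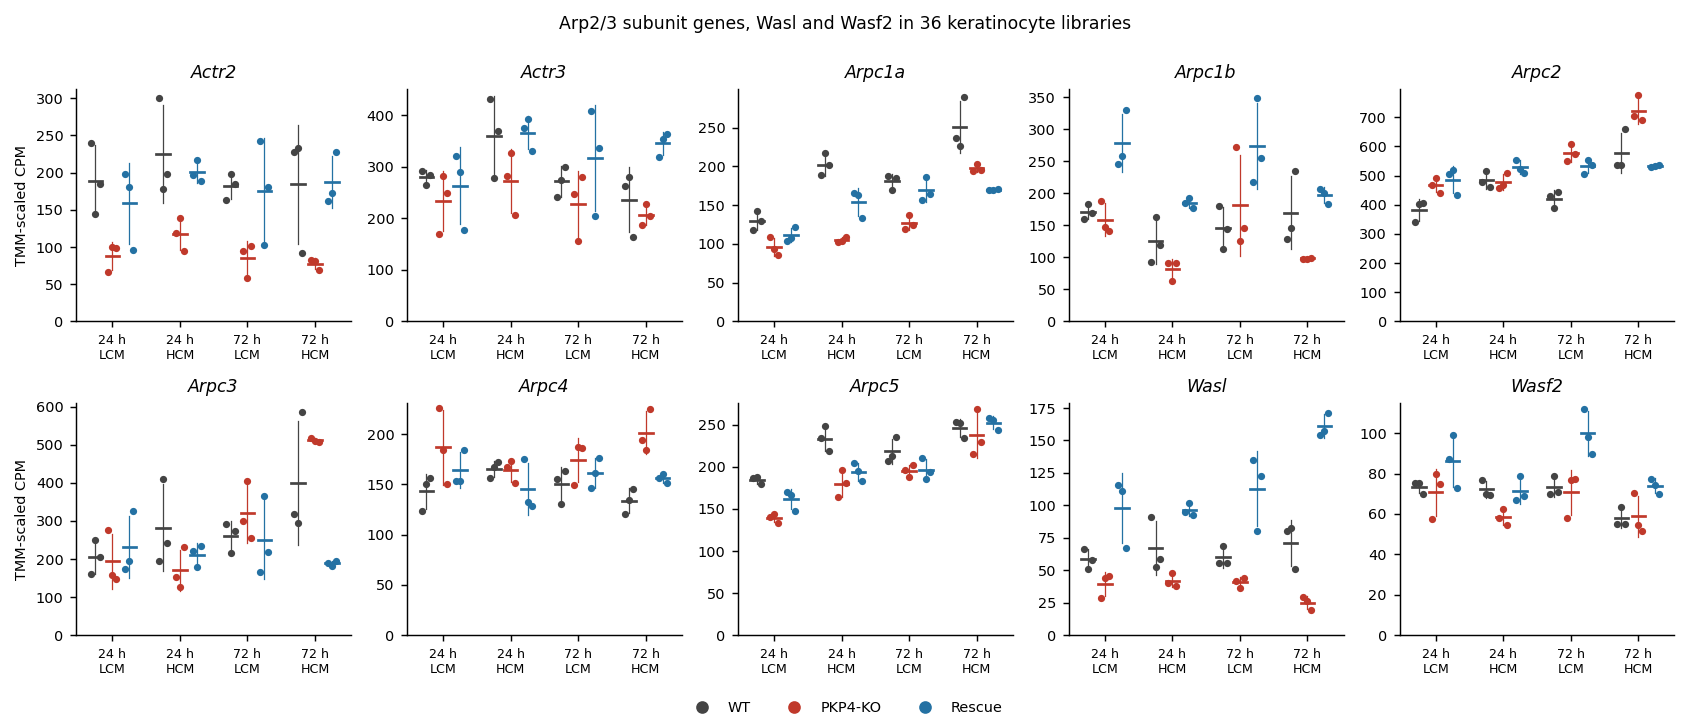
Level of the 10 members (y axis, TMM-scaled CPM) in each of the 36 libraries (points) by culture condition (x axis), with the mean of 3 libraries (bar) and its SD (line); WT grey, PKP4-KO red, Rescue blue. Actr2, Arpc1a and Wasl of PKP4-KO lie below WT in all 4 conditions, and Wasl of Rescue lies above WT.

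In PKP4-KO cells 3 members were called lower than in WT cells in every culture condition: ARP2 (Actr2), the ARPC1 form Arpc1a and N-WASP (Wasl). Their log2 fold changes lay between -1.50 and -0.35. Some of these calls were lost in alternative fits or without 1 library, among them those on Wasl in LCM and on Arpc1a at 72 h HCM (given below). Of all tested genes, 10.2% were called lower in all 4 conditions. Of the others, Arpc1b, Arpc2, Arpc4 and Arpc5 passed the test in some conditions, and Actr3, Arpc3 and Wasf2 in none. Of the 10 members, 0 were higher and 5 lower at 24 h HCM, where 20.7% and 22.2% of all tested genes were higher and lower (edgeR quasi-likelihood test, Benjamini-Hochberg adjusted p below 0.05). In the higher direction 0 members had an unadjusted p below 0.05 there, and DESeq2 called 0. At 72 h HCM 2 were higher and 4 lower, against 21.9% and 29.9% of all genes. At 24 h LCM 2 were higher and 4 lower (19.7% and 20.6% of all genes), and at 72 h LCM 1 was higher and 3 were lower (21.3% and 23.8%). Over the 4 conditions this made 16 lower and 5 higher calls among 40, when 20.6% to 29.9% of all genes were lower and 19.7% to 21.9% higher. Actr2, Arpc1a and Wasl were counted 4 times each among the lower calls, so that the 40 are not separate observations. At 24 h HCM and at 72 h in both media, the summed markers of differentiated keratinocytes were higher in PKP4-KO than in WT libraries, without overlap. At 24 h LCM the sums overlapped. The part of these markers in the calls was not tested. The median log2 fold change of the members was -0.51 at 24 h HCM, where that of all tested genes was 0.00, and -0.12, -0.18 and -0.11 at 72 h HCM, 24 h LCM and 72 h LCM, where that of all genes was -0.07, 0.00 and 0.02. Without TMM factors the median of all genes shifted by -0.76 in HCM after 72 h and, in LCM, by -0.23 after 24 h and -0.37 after 72 h, so that the fold changes are relative to the scaling.

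**Figure D3:**
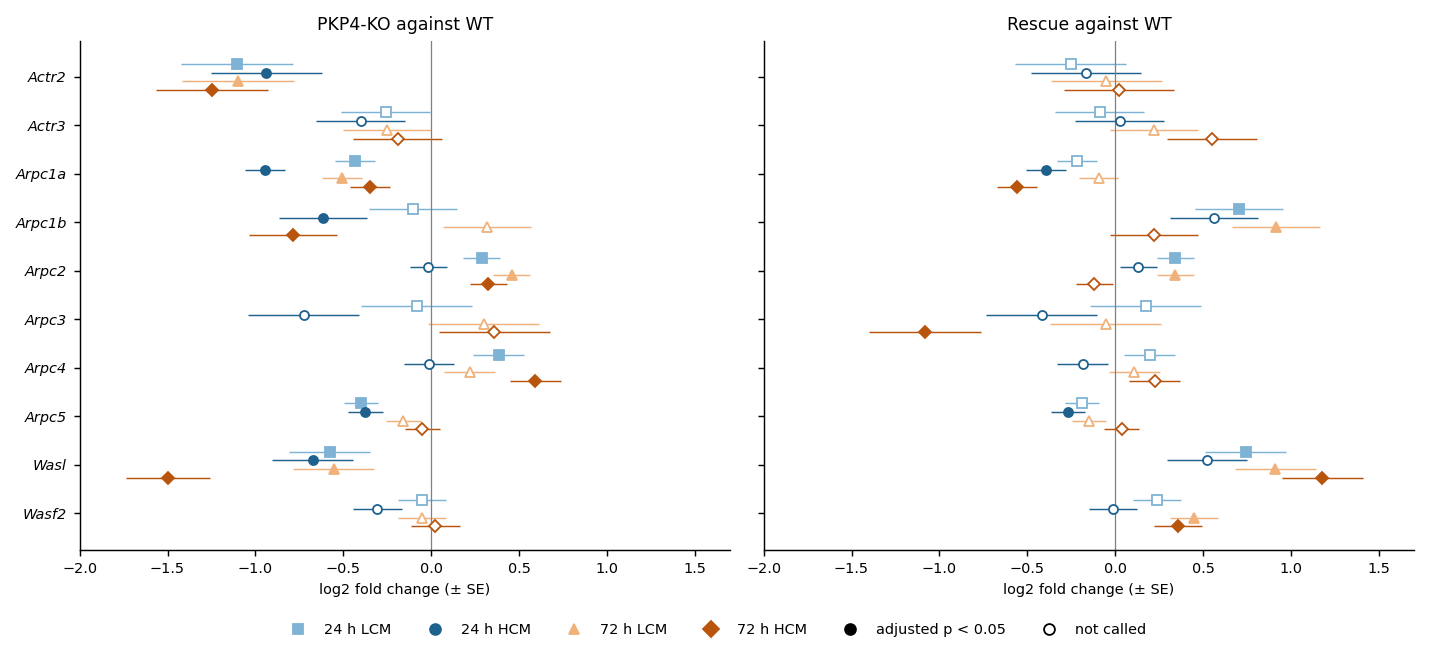
Log2 fold change with its SE (x axis) of each member (y axis) in PKP4-KO against WT (left) and Rescue against WT (right), for the 4 culture conditions; filled symbols have an adjusted p below 0.05. Actr2, Arpc1a and Wasl are below 0 with filled symbols in all 4 conditions on the left, and Wasl is above 0 on the right.

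ARP2 and ARP3, the actin-like pair of the complex, were measured separately. At 24 h HCM, Actr2 was at 300.1, 178 and 198 CPM in the WT, 119, 138 and 94.7 in the PKP4-KO and 196, 218 and 188 in the Rescue libraries. It was at 228, 233 and 92.0 CPM in the WT, 82.7, 81.4 and 68.8 in the PKP4-KO and 162, 173 and 227 in the Rescue libraries after 72 h in HCM. In both conditions the PKP4-KO libraries were the lowest 3, and the Rescue libraries lay within the range of WT or close to it. In LCM, Actr2 was at 239, 144 and 184 CPM in the WT, 66.5, 99.4 and 98.1 in the PKP4-KO and 199, 181 and 96.2 in the Rescue libraries at 24 h. It was at 163, 198 and 185 CPM in the WT, 95.2, 58.6 and 101 in the PKP4-KO and 243, 103 and 181 in the Rescue libraries after 72 h in LCM. The groups of WT and PKP4-KO did not overlap there either, while the Rescue library with few counts on long genes, replicate 3 after 24 h and replicate 2 after 72 h, lay at about the level of the highest PKP4-KO libraries. The log2 fold change of Actr2 in PKP4-KO against WT was -0.94 (SE 0.32, adjusted p = 0.0170) after 24 h and -1.25 (SE 0.32, adjusted p = 0.00186) after 72 h in HCM, and -1.10 (SE 0.32, adjusted p = 0.00645) after 24 h and -1.10 (SE 0.32, adjusted p = 0.00591) after 72 h in LCM. It passed the test with length offsets as well, at -0.92, -0.89, -1.05 and -0.92, and without the 6 libraries, at -0.98, -1.55, -0.97 and -1.11. At 24 h HCM the call was lost without PKP4-KO replicate 3 (-0.80) or WT replicate 1 (-0.68) and without TMM factors (-0.89). In the other 3 conditions it held without each library and in all 9 alternative fits.

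Actr3, in contrast, passed the test against WT in no condition. It was at 431, 278 and 369 CPM in the WT and 283, 327 and 206 in the PKP4-KO libraries at 24 h HCM, and the groups overlapped. Its log2 fold changes in PKP4-KO were -0.40, -0.19, -0.26 and -0.25 in the order 24 h HCM, 72 h HCM, 24 h LCM and 72 h LCM, each with an SE of 0.25, so that a change of this size could not be told from 0 at this spread. Whether Actr2 changed more than Actr3 was not tested.

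The ARPC1 subunit, through which the complex meets its activators, is encoded by Arpc1a and Arpc1b. Arpc1a was at 188, 217 and 202 CPM in the WT, 102, 104 and 109 in the PKP4-KO and 166, 163 and 133 in the Rescue libraries at 24 h HCM. After 72 h in HCM it was at 237, 227 and 289 CPM in the WT, 194, 203 and 195 in the PKP4-KO and 169, 169.8 and 171 in the Rescue libraries. PKP4-KO libraries were well below WT at 24 h HCM and closer to WT at 72 h HCM, and Rescue libraries were below WT in both. In LCM, Arpc1a was at 118, 142 and 129 CPM in the WT, 108, 93.8 and 85.7 in the PKP4-KO and 104, 108 and 122 in the Rescue libraries at 24 h. After 72 h in LCM it was at 187, 169.9 and 185 CPM in the WT, 119.5, 137 and 125 in the PKP4-KO and 157, 186 and 165 in the Rescue libraries. The log2 fold change in PKP4-KO was -0.95 (SE 0.11, adjusted p = 7.87e-08) after 24 h and -0.35 (SE 0.11, adjusted p = 0.0120) after 72 h in HCM, and -0.43 (SE 0.11, adjusted p = 0.00300) after 24 h and -0.51 (SE 0.11, adjusted p = 6.20e-04) after 72 h in LCM, with no overlap between the groups in any of them. The calls at 24 h HCM and in LCM held in every alternative fit. That at 72 h HCM was lost without WT replicate 3 (-0.24) and held in 4 of the 9 alternative fits, with a value of -0.22 without the 6 libraries. The effect at 72 h differed from that at 24 h in HCM by 0.60 (SE 0.16, adjusted p = 0.00604), and by -0.22 without TMM factors.

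Arpc1b had a Pearson's r of -0.05 with Arpc1a over the 12 group means, and the fold changes of both genes were not compared by a test. Arpc1b was at 93.1, 163 and 119 CPM in the WT, 91.1, 63.7 and 90.6 in the PKP4-KO and 185, 193 and 176 in the Rescue libraries after 24 h in HCM. It was at 128, 146 and 235 CPM in the WT, 97.7, 97.7 and 99.5 in the PKP4-KO and 207, 201 and 184 in the Rescue libraries after 72 h in HCM. In HCM it was thus lowest in PKP4-KO, with log2 fold changes against WT of -0.61 (SE 0.25, adjusted p = 0.0483) at 24 h and -0.79 (SE 0.25, adjusted p = 0.0104) at 72 h. Only 1 of the 6 fits that left out a library kept the first call (-0.79 to -0.38). The second was lost without WT replicate 3 (-0.49), 1 of the 6 libraries named above. Without all 6 the values were -0.48 and -0.46. With length offsets, which use 5115 bp for Arpc1b and not the 1585 bp of its canonical transcript, they were -0.61 and -0.50. None of these 4 passed the threshold. The first call was also lost with RLE size factors (-0.62), without a filter on low counts (-0.61), when only the groups compared entered the fit (-0.65) and with the replicate block (-0.62, adjusted p = 0.0543). In LCM the values were -0.10 at 24 h and 0.32 at 72 h and did not pass the test. Of the RNA of both genes per length, Arpc1b made up 23.4 ± 3.82, 24.9 ± 3.82, 39.8 ± 0.734 and 28.5 ± 3.79% in WT cells at 24 h HCM, 72 h HCM, 24 h LCM and 72 h LCM (mean ± SD, n = 3), 28.0 ± 3.93, 20 ± 0.504, 45.3 ± 1.17 and 40.6 ± 11.4% in PKP4-KO cells and 37.7 ± 2.01, 36.8 ± 1.53, 55.4 ± 1.85 and 44.4 ± 3.77% in Rescue cells. The size of these shares depends on the table lengths of 5115 bp for Arpc1b and 2567 bp for Arpc1a, whose canonical transcripts have 1585 and 1666 bp. Without division by length the WT libraries at 24 h HCM were at 33.1, 43.0 and 37.1%. In Rescue cells the share per length was above WT in all 4 conditions without overlap, by 11.9 to 15.9 percentage points. The exact two-sided permutation p was 0.1 in each (0.133 adjusted over 8 comparisons), which is the smallest that 3 libraries against 3 allow. For PKP4-KO the p-value of the same exact permutation test was 0.1 at 72 h HCM and 24 h LCM, where the share was lower and higher than in WT, and 0.2 in the other conditions.

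**Figure D4:**
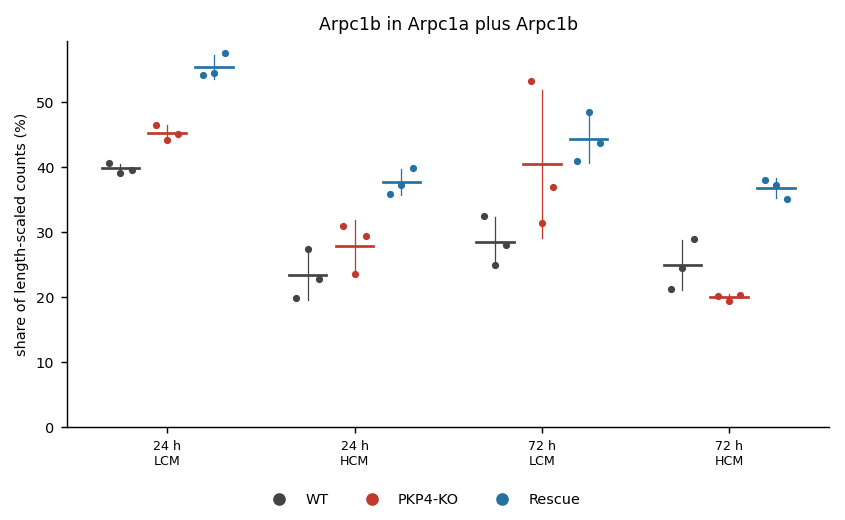
Share of each library (points) of Arpc1b in Arpc1a plus Arpc1b, as percent of counts divided by gene length (y axis), by culture condition (x axis); bars are means of 3 libraries and lines their SD, with WT grey, PKP4-KO red and Rescue blue. The Rescue libraries lie above the WT libraries in all 4 conditions.

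Among the remaining ARPC subunits, Arpc2 and Arpc4 form the core dimer that holds ARP2 and ARP3, Arpc3 bridges ARP3, and Arpc5 ties ARP2 to the core. Arpc2 was at 538, 538 and 658 CPM in the WT and 703, 775 and 690.5 in the PKP4-KO libraries at 72 h HCM, with every PKP4-KO library above WT. Its log2 fold change was 0.32 (SE 0.11, adjusted p = 0.0119) there, 0.29 (SE 0.11, adjusted p = 0.0303) and 0.46 (SE 0.11, adjusted p = 8.65e-04) in LCM after 24 h and 72 h, and -0.02 in HCM after 24 h, where it did not pass the test. Without TMM factors the value at 72 h HCM became -0.43, and with length offsets the 4 values were -0.14, 0.07, 0.04 and 0.20, none of them past the threshold. The call at 72 h HCM was lost without PKP4-KO replicate 2, WT replicate 1 or WT replicate 2 (0.26 to 0.27), that at 24 h LCM without PKP4-KO replicate 1 or 2 or WT replicate 1, and that at 72 h LCM held without each library. Without the 6 libraries the values were -0.04, 0.44, 0.26 and 0.45, of which those at 72 h passed the test. The calls at 72 h HCM and 24 h LCM were lost as well without a filter (0.30 and 0.30) and with only the groups compared (0.35 and 0.27). Those in LCM were lost without TMM factors (0.06 at 24 h and 0.07 at 72 h). Arpc4 was at 121, 134 and 146 CPM in the WT and 195, 184 and 225 in the PKP4-KO libraries at 72 h HCM, a log2 fold change of 0.59 (SE 0.14, adjusted p = 0.00127), and 0.38 (SE 0.14, adjusted p = 0.0352) at 24 h LCM. The first held without each library and at 0.41 with length offsets but was -0.16 without TMM factors. The second was lost without PKP4-KO replicate 1, PKP4-KO replicate 2 or WT replicate 1. It was 0.20 without the 6 libraries, 0.13 without TMM factors, 0.39 without a filter, 0.37 with only the groups compared and 0.16 with length offsets, not called in any of these 5. The effect on Arpc4 at 72 h HCM exceeded that at 24 h HCM by 0.60 (SE 0.20, adjusted p = 0.0281), but 6 of the 12 fits that left out a library did not call it, and the difference was -0.22 without TMM factors.

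Arpc5 was lower in PKP4-KO at 24 h in both media. It was at 234, 248 and 219 CPM in the WT and 164, 196 and 181 in the PKP4-KO libraries in HCM and at 186, 187 and 179 CPM in the WT and 141, 144 and 134 in the PKP4-KO libraries in LCM, without overlap in either. The log2 fold changes were -0.37 (SE 0.10, adjusted p = 0.00246) in HCM and -0.40 (SE 0.10, adjusted p = 0.00163) in LCM, called without each library in turn, and -0.05 and -0.16 at 72 h, where they did not pass the test. Without the 6 libraries the 24 h values were -0.36 and -0.43, both called. That in HCM was not called without TMM factors (-0.31), without a filter (-0.36) or with only the groups compared (-0.40), nor that in LCM without a filter (-0.39). Its paralog Arpc5l was lower in all 4 conditions, with log2 fold changes of -1.04, -0.73, -0.58 and -0.75. Arpc3 passed the test against WT in no PKP4-KO comparison, with log2 fold changes of -0.73, 0.36, -0.08 and 0.30, each with an SE of 0.32. At 72 h HCM it was at 317, 294 and 586 CPM in the WT and 518, 508 and 508 in the PKP4-KO libraries, and WT replicate 3 stood apart from the other WT libraries. Without the 6 libraries, that one among them, the values at 24 h and 72 h HCM were -0.66 and 0.76 and passed the test.

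The activator N-WASP (Wasl) was the member with the widest range. Wasl was at 91.0, 52.4 and 58.4 CPM in the WT, 40.6, 47.7 and 38.0 in the PKP4-KO and 95.3, 101 and 92.8 in the Rescue libraries after 24 h in HCM. It was at 80.0, 82.4 and 50.8 CPM in the WT, 29.9, 26.2 and 19.6 in the PKP4-KO and 154, 157 and 171 in the Rescue libraries after 72 h in HCM. At both times PKP4-KO was lowest and Rescue highest, and the 3 groups did not overlap. In LCM it was at 66.5, 51.4 and 58.1 CPM in the WT, 28.6, 43.8 and 45.4 in the PKP4-KO and 116, 111 and 67.0 in the Rescue libraries at 24 h. After 72 h in LCM it was at 55.3, 69.1 and 55.6 CPM in the WT, 42.0, 36.3 and 44.1 in the PKP4-KO and 135, 80.1 and 123 in the Rescue libraries. The order was the same and again without overlap. The log2 fold change in PKP4-KO was -0.68 (SE 0.23, adjusted p = 0.0183) after 24 h and -1.50 (SE 0.24, adjusted p = 7.34e-06) after 72 h in HCM, and -0.58 (SE 0.23, adjusted p = 0.0457) after 24 h and -0.56 (SE 0.23, adjusted p = 0.0499) after 72 h in LCM. At 72 h HCM, where PKP4-KO libraries had the smallest share of counts on long genes, the call held in all 6 fits without a library and in all 9 alternative fits, at -1.05 with length offsets. The others were less firm. The call at 24 h HCM was lost without PKP4-KO replicate 1 (-0.65) or 3 (-0.61) or WT replicate 1 (-0.40), that at 24 h LCM without PKP4-KO replicate 1 (-0.39) or 2 (-0.66) or WT replicate 1 (-0.48) or 3 (-0.59), and that at 72 h LCM without any of its 6 libraries (-0.62 to -0.45) and with length offsets (-0.27). Without TMM factors the 24 h values were -0.64 in HCM and -0.80 in LCM, neither called. Without a filter those in LCM were -0.56 at 24 h and -0.58 at 72 h, again not called. With the replicate block both LCM values missed the threshold, at -0.56 (adjusted p = 0.0521) and -0.55 (adjusted p = 0.0502). The value at 72 h LCM missed it also with RLE size factors (-0.53) and with at least 10 counts in every library (-0.52). Without the 6 libraries the values were -0.78, -1.67, -0.42 and -0.57, all called.

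WAVE2 (Wasf2) was steadier. It was at 77.0, 69.9 and 69.5 CPM in the WT and 57.9, 62.3 and 54.7 in the PKP4-KO libraries at 24 h HCM, and although these groups did not overlap, the log2 fold change of -0.31 (SE 0.14, adjusted p = 0.0729) did not pass the test. In the other conditions it was 0.02, -0.05 and -0.05, and at 72 h HCM it became -0.75 without TMM factors and 0.46 with length offsets, both past the threshold in opposite directions.

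**Figure D5:**
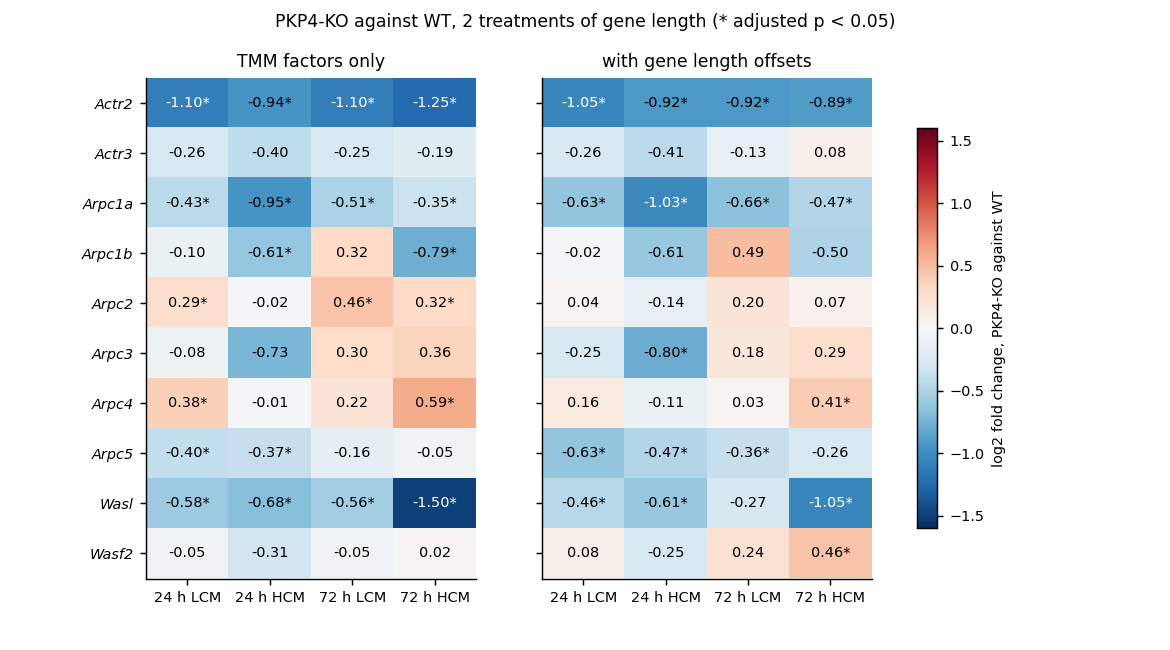
Log2 fold change of PKP4-KO against WT (colour) of the 10 members (rows) in the 4 culture conditions (columns), with TMM factors alone (left) and with offsets for gene length added (right); an asterisk marks an adjusted p below 0.05. Actr2 and Arpc1a carry an asterisk in all 8 cells, Wasl in 7, and Arpc2 in none on the right.

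Rescue cells were compared with WT cells as well, and vector, selection and PKP4 expression cannot be told apart in these differences. At 24 h HCM 0 members were higher and 2 lower, when 11.8% and 11.4% of all tested genes were, and at 72 h HCM 2 were higher and 2 lower (19.5% and 16.7%). At 24 h LCM 3 were higher and 0 lower (13.5% and 11.4%), and at 72 h LCM 4 were higher and 0 lower (17.9% and 14.6%). In the directions without a call, 2 members had an unadjusted p below 0.05 in HCM after 24 h, where DESeq2 called 0. In LCM these counts were 0 after 24 h, where DESeq2 called 1, and 0 after 72 h, where it called 0. The members that passed were Wasl, Wasf2, Arpc1b and Arpc2 among the higher and Arpc1a, Arpc3 and Arpc5 among the lower. Wasl was above WT, with log2 fold changes of 1.18 (SE 0.23, adjusted p = 2.45e-04) in HCM after 72 h and, in LCM, of 0.74 (SE 0.23, adjusted p = 0.0176) after 24 h and 0.91 (SE 0.23, adjusted p = 0.00270) after 72 h. At 24 h HCM the value was 0.52 (adjusted p = 0.105), which did not pass the test. Both 72 h calls held in all fits without a library and in all 9 alternative fits, and that at 24 h LCM was lost without Rescue replicate 1 or 2 or WT replicate 2 or 3 (as low as 0.60) and without TMM factors (0.61). Wasf2 was 0.35 (SE 0.14, adjusted p = 0.0440) at 72 h HCM and 0.45 (SE 0.14, adjusted p = 0.0127) at 72 h LCM, where it was at 70.1, 78.9 and 71.0 CPM in the WT and 112, 98 and 89.8 in the Rescue libraries and the groups did not overlap. The first call held in 1 of 6 fits without a library, that without WT replicate 2, and the second was lost without Rescue replicate 1 or WT replicate 1 or 3. The first was not called in 4 of the 9 alternative fits, without a filter (0.35), with only the groups compared (0.33), without the 6 libraries and with length offsets (0.13). The second was not called without TMM factors (0.41) or a filter (0.44). Arpc1b was 0.91 (SE 0.25, adjusted p = 0.00550) at 72 h LCM, a call lost without Rescue replicate 2 (0.70), and 0.71 (SE 0.25, adjusted p = 0.0384) at 24 h LCM, held in 1 of 6 fits without a library, that without Rescue replicate 1. Arpc2 was 0.34 (SE 0.11, adjusted p = 0.0172) at 24 h LCM, lost without Rescue replicate 1 or 2 or WT replicate 1, and 0.34 (SE 0.11, adjusted p = 0.0135) at 72 h LCM, lost without Rescue replicate 2 or WT replicate 2. Neither was called without TMM factors (0.22 and 0.30), without a filter (0.35 and 0.34) or with only the groups compared (0.36 and 0.36), nor the first with length offsets (0.26). Arpc1a was below WT in HCM, with log2 fold changes of -0.39 (SE 0.11, adjusted p = 0.0115) at 24 h and -0.56 (SE 0.11, adjusted p = 3.31e-04) at 72 h. The second held without each library, and the first was lost without Rescue replicate 3 (-0.30) or WT replicate 2 (-0.34), without a filter (-0.37) and with only the groups compared (-0.40). Arpc3 at 72 h HCM was at 317, 294 and 586 CPM in the WT and 189.8, 181 and 195 in the Rescue libraries, a log2 fold change of -1.08 (SE 0.32, adjusted p = 0.00948), lost without WT replicate 3 (-0.70), and Arpc5 at 24 h HCM was -0.27 (SE 0.10, adjusted p = 0.0462), held in 1 of 6 fits without a library, that without WT replicate 3. The Arpc5 value was not called in 5 of the 9 alternative fits, at -0.14 without TMM factors, -0.24 without a filter, -0.27 with only the groups compared, -0.23 without the 6 libraries and -0.28 with length offsets. Without TMM factors, which shifted the median of all genes by 0.40 at 72 h HCM, Arpc1a was -0.13 there, which was not called, and Arpc3 -0.61. Without the 6 libraries, Wasl was 0.36, 1.0, 0.94 and 1.09, with the last 3 called, and Arpc1b in LCM was 0.55 at 24 h, not called, and 0.69 at 72 h. Wasf2 at 72 h was 0.34 in HCM, not called, and 0.45 in LCM, Arpc2 in LCM was 0.41 and 0.30, and Arpc3 at 72 h HCM was -0.68. Actr2 was not called against WT, with values of -0.17, 0.02, -0.25 and -0.05, each with an SE of 0.31.

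Between Rescue and PKP4-KO cells, which share the deletion, 3 members were higher and 0 lower at 24 h HCM (21.7% and 19.0% of all tested genes), 5 higher and 3 lower at 72 h HCM (37.2% and 29.5%), 3 higher and 0 lower at 24 h LCM (18.2% and 15.5%), and 4 higher and 0 lower at 72 h LCM (23.3% and 18.3%). In the 3 conditions without a lower call, 0 members were lower with an unadjusted p below 0.05, and DESeq2 called 0 lower. These comparisons use the same PKP4-KO libraries as those against WT, and the values are given side by side without a test of their relation. Wasl was higher in Rescue cells in all 4 conditions, with log2 fold changes of 2.67 (SE 0.25, adjusted p = 5.12e-10) at 72 h HCM and 1.20, 1.32 and 1.47 at 24 h HCM, 24 h LCM and 72 h LCM, called in every alternative fit and without each library. Actr2 was 1.27 (SE 0.32, adjusted p = 0.00109) at 72 h HCM, called in every fit, 0.85 and 1.05 at 24 h and 72 h LCM, and 0.77 at 24 h HCM (adjusted p = 0.0508). The call at 24 h LCM held only without Rescue replicate 3, and that at 72 h LCM was lost without Rescue replicate 1 or PKP4-KO replicate 2 (as low as 0.74). Neither was called with only the groups compared (0.86 and 1.01), nor the first without TMM factors (0.95). Without the 6 libraries, Actr2 was 0.65, 1.27, 0.96 and 1.32 in the order 24 h HCM, 72 h HCM, 24 h LCM and 72 h LCM, all called. Arpc1a was 0.55 (SE 0.11, adjusted p = 2.33e-04) at 24 h HCM and 0.41 (SE 0.11, adjusted p = 0.00439) at 72 h LCM, called without each library, and Wasf2 was 0.50 (SE 0.14, adjusted p = 0.00427) at 72 h LCM. With only the groups compared, Arpc1a (0.37) and Wasf2 (0.46) were not called at 72 h LCM, nor was Wasf2 with length offsets (0.30). Arpc1b was 1.18 (SE 0.25, adjusted p = 3.83e-04), 1.01 (SE 0.25, adjusted p = 0.00105) and 0.81 (SE 0.25, adjusted p = 0.0125) at 24 h HCM, 72 h HCM and 24 h LCM, the last of which was lost without Rescue replicate 3 or PKP4-KO replicate 3, and the second of which was 0.52 with length offsets and was not called. At 72 h HCM, Actr3 (0.74) and Wasf2 (0.33) were also higher, and Arpc2 (-0.44), Arpc3 (-1.44) and Arpc4 (-0.37) were lower. Without TMM factors the median of all genes shifted by 1.17 in this comparison, and Arpc2, Arpc3 and Arpc4 became 0.74, -0.26 and 0.80, of which that of Arpc3 was not called. With length offsets Actr3 (0.35), Arpc2 (0.08) and Arpc4 (0.01) were not called. The Arpc4 call was lost without Rescue replicate 1 or 3 or PKP4-KO replicate 3 and without a filter (-0.35). That on Wasf2 was lost without Rescue replicate 1 or 2 or PKP4-KO replicate 2 or 3, with RLE size factors (0.20), by DESeq2 (0.20), without a filter (0.34) and with only the groups compared (0.24). With length offsets Wasf2 was -0.33 (adjusted p = 0.0228).

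Calcium and time in culture were compared within each genotype. Of the 60 comparisons of a member between HCM and LCM, 11 were higher and 4 lower in HCM, when 8.60% and 9.38% of the comparisons of all tested genes were. Arpc1a accounted for 4 of the 11. It was higher in HCM in WT cells at 24 h, by 0.64 (SE 0.11, adjusted p = 1.55e-04), and at 72 h, by 0.47 (SE 0.11, adjusted p = 0.00291), and in Rescue cells at 24 h, by 0.47 (SE 0.11, adjusted p = 0.00526). In WT cells Arpc2 was also higher in HCM, by 0.34 (SE 0.11, adjusted p = 0.0284) at 24 h and 0.46 (SE 0.11, adjusted p = 0.00193) at 72 h, and Arpc5 at 24 h, by 0.34 (SE 0.10, adjusted p = 0.0159). Without TMM factors the median of all genes shifted by -0.29 in WT cells at both times. The WT values, those of Arpc1a among them, are relative to this scaling. In Rescue cells at 72 h, Arpc5 was 0.36 (SE 0.10, adjusted p = 0.00683), and Wasf2 was -0.43 (SE 0.14, adjusted p = 0.0204). In PKP4-KO cells Arpc1b was lower in HCM, with -0.96 (SE 0.25, adjusted p = 0.0327) at 24 h and -0.88 (SE 0.25, adjusted p = 0.00815) at 72 h, and Wasl at 72 h, with -0.70 (SE 0.23, adjusted p = 0.0237), while Arpc5 at 24 h was 0.37 (SE 0.10, adjusted p = 0.0350). Arpc1a, Arpc2 and Arpc5 were higher in HCM in PKP4-KO cells at 72 h, by 0.63, 0.33 and 0.28, but without TMM factors, which shifted the median of all genes by -0.69, they were -0.05, -0.36 and -0.42. The 4 Arpc1a calls held without each library. In WT cells at 24 h, the Arpc2 call was lost without HCM replicate 1 or 2 or LCM replicate 1 and the Arpc5 call without HCM replicate 2 or LCM replicate 3, and in Rescue cells at 72 h the Wasf2 call was lost without HCM replicate 2 or 3 or LCM replicate 1. In PKP4-KO cells at 24 h, the Arpc1b call was lost without any of the 6 libraries compared (-1.04 to -0.81) and the Arpc5 call held only without HCM replicate 1. At 72 h, the Arpc1b call was lost without LCM replicate 1 (-0.47), the Arpc2 call without HCM replicate 2 or LCM replicate 1 or 3, the Arpc5 call without HCM replicate 2 or any LCM library, and the Wasl call without HCM replicate 2 or 3 or LCM replicate 1 or 3. Genes over 6000 bp, Wasl among them, took 6.56% to 7.08% of counts in HCM and 9.52% to 12.6% in LCM there. The part of this share was not tested.

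Between 72 h and 24 h, 11 of 60 comparisons of members were higher and 1 lower, when 12% and 12% of those of all tested genes were. In WT cells the only member called was Arpc1a in LCM, at 0.48 (SE 0.11, adjusted p = 0.00563). It also rose in LCM in PKP4-KO cells, by 0.41 (SE 0.11, adjusted p = 0.00813), and in Rescue cells, by 0.60 (SE 0.11, adjusted p = 3.85e-04). In PKP4-KO cells in LCM, Arpc2 and Arpc5 rose by 0.30 (SE 0.11, adjusted p = 0.0339) and 0.49 (SE 0.10, adjusted p = 3.89e-04). Without TMM factors, which shifted the median of all genes by -0.37, Arpc1a, Arpc2 and Arpc5 were 0.04, -0.07 and 0.12 there. The Arpc1a call was lost without the 24 h replicate 3, and the Arpc2 call without the 72 h replicate 2 or 3 or the 24 h replicate 1 or 3. Wasl moved in opposite directions in HCM. It fell in PKP4-KO cells, with -0.74 (SE 0.23, adjusted p = 0.00903), and rose in Rescue cells, with 0.74 (SE 0.23, adjusted p = 0.0180); the difference between these changes was not tested. The first call was lost without the 72 h replicate 3 (-0.59), and the second without the 72 h replicate 3 or the 24 h replicate 1 or 3. In Rescue cells in HCM, Arpc5 rose by 0.38 (SE 0.10, adjusted p = 0.00447). In PKP4-KO cells in HCM, Arpc1a, Arpc2, Arpc3 and Arpc5 were higher at 72 h by 0.91, 0.60, 1.58 and 0.40. Without TMM factors the median of all genes shifted by -1.06, and the 4 values were -0.16, -0.47, 0.54 and -0.67. Of 40 differences of the PKP4-KO effect between times or media, 2 members were called, Arpc1a and Arpc4 given above, when 10.4% of those of all tested genes were.

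The members act within a wider pathway, and a list of 42 of its other genes was counted, of which 38 were tested. Was, Nckap1l, Wipf3 and Hcls1 had too few counts. In PKP4-KO against WT, 2 higher and 15 lower were called in HCM after 24 h (20.7% and 22.2% of all tested genes) and 7 higher and 19 lower after 72 h (21.9% and 29.9%), and 4 higher and 12 lower in LCM after 24 h (19.7% and 20.6%) and 6 higher and 13 lower after 72 h (21.3% and 23.8%). The median log2 fold changes of the list were -0.24, -0.55, -0.23 and -0.33, and those of all tested genes lay between -0.07 and 0.02. In Rescue against PKP4-KO, in the same order of conditions, 16 higher and 2 lower (21.7% and 19.0% of all tested genes), 24 higher and 7 lower (37.2% and 29.5%), 14 higher and 1 lower (18.2% and 15.5%) and 18 higher and 3 lower (23.3% and 18.3%) were called. In Rescue against WT the counts were 6 higher and 3 lower (11.8% and 11.4%), 11 higher and 5 lower (19.5% and 16.7%), 5 higher and 3 lower (13.5% and 11.4%) and 9 higher and 5 lower (17.9% and 14.6%). In the same direction in all 4 PKP4-KO comparisons were 12 of the 38 genes, 2 higher and 10 lower, against 8.48% and 10.2% of all tested genes. These 12 were singled out after their values were seen.

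In the WAVE regulatory complex, which carries WAVE2 and holds it inactive until RAC1 binds, Nckap1 and Abi1 were lower in PKP4-KO cells in all 4 conditions, where Wasf2 was called in none. Nckap1, its large scaffold, was at 224, 102 and 137 CPM in the WT, 51.0, 57.8 and 37.5 in the PKP4-KO and 108, 135 and 107 in the Rescue libraries at 24 h HCM. After 72 h in HCM it was at 143, 162 and 74.7 CPM in the WT, 28.1, 27.6 and 21.8 in the PKP4-KO and 115, 127 and 153 in the Rescue libraries. PKP4-KO was lowest throughout, with log2 fold changes of -1.66 (SE 0.35, adjusted p = 3.08e-04) in HCM after 24 h, -2.29 after 72 h, and -1.71 and -1.83 in LCM, called in all 9 alternative fits and without each library, whereas Rescue against WT was -0.40, 0.05, -0.52 and -0.33 and was not called. Abi1, which joins WAVE to the scaffold, was at 111, 80.5 and 79.2 CPM in the WT and 39.8, 45.3 and 31.8 in the PKP4-KO libraries at 24 h HCM, a log2 fold change of -1.21 (SE 0.23, adjusted p = 9.74e-05), with -1.37, -1.11 and -1.16 in the other conditions, again called in every fit. Cyfip1, the RAC1-binding subunit, and Brk1, the smallest one, passed the test in no condition (log2 fold changes from -0.60 to 0.76), and Cyfip2, a low-level relative of Cyfip1, was at 3.66, 2.16 and 1.33 CPM in WT and 0.233, 0.209 and 0.148 in PKP4-KO libraries at 24 h HCM, a log2 fold change of -3.52 (SE 0.45, adjusted p = 1.87e-07). In the other conditions Cyfip2 was -1.23, -2.82 and -3.20, the first of which was lost without PKP4-KO replicate 3. As with Actr2, Nckap1 and Abi1 were lowest in the Rescue library with few counts on long genes at 24 h LCM, at 51.8 and 33.6 CPM in replicate 3, against 116 and 104 and 56.0 and 55.0 in the other replicates.

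Genes that stabilise branches or curb the complex were measured as well. Cortactin (Cttn), which holds the complex on its branch, was at 254, 180.4 and 242 CPM in the WT, 104, 104 and 64.8 in the PKP4-KO and 186, 178 and 160.1 in the Rescue libraries at 24 h HCM. Its log2 fold change in PKP4-KO was -1.31 (SE 0.19, adjusted p = 2.30e-06) there and -0.94, -0.94 and -1.0 in the other conditions, called in every fit, and -0.37, 0.06, -0.21 and 0.03 in Rescue against WT, where it was not called. Coronin 1B (Coro1b), which counteracts cortactin at branches, was lower too, with -0.93, -0.58, -0.53 and -0.39, although the last of these was lost without PKP4-KO replicate 2 or 3 or WT replicate 1 or 3. Arpin, an inhibitor that competes with WAVE for the complex, was higher in PKP4-KO. It was at 26.5, 33.4 and 27.4 CPM in the WT, 45.8, 47.9 and 54.6 in the PKP4-KO and 66.0, 54.3 and 58.2 in the Rescue libraries at 24 h HCM, so that both PKP4-KO and Rescue lay above WT, with log2 fold changes against WT of 0.77 (SE 0.15, adjusted p = 1.61e-04) and 1.03 (SE 0.15, adjusted p = 9.20e-06). In the other conditions Arpin was 0.90, 0.79 and 0.54 in PKP4-KO cells, and the values of Rescue cells were 0.48, 1.21 and 1.12, all called. The first of the latter was lost without WT replicate 1 or 2. Without TMM factors the PKP4-KO value at 72 h HCM was 0.16 and that at 72 h LCM 0.14, neither past the threshold, and the call at 72 h LCM was lost without PKP4-KO replicate 2 (0.39). Fnbp1l (TOCA-1), which links CDC42 to N-WASP, was at 16.0, 8.19 and 10.4 CPM in the WT and 4.24, 3.26 and 1.48 in the PKP4-KO libraries at 24 h HCM, with log2 fold changes in PKP4-KO of -1.92, -2.50, -2.06 and -1.89, and its relatives Trip10 and Fnbp1 were lower too, with -0.73, -1.95, -0.60 and -0.88 and -1.15, -0.51, -1.17 and -1.16. The Trip10 call at 24 h was lost without PKP4-KO replicate 2 or WT replicate 2 in HCM and without replicate 2 or 3 of either in LCM. With length offsets Fnbp1 was 0.16 at 72 h HCM. Coronin genes Coro1c (-0.29, -0.51, -0.35 and -0.60) and Coro2a (1.29, 0.78, 0.60 and 1.41) completed the 12, in opposite directions. The Coro1c call was lost at 24 h HCM without replicate 1 or 3 of PKP4-KO or WT and at 24 h LCM without PKP4-KO replicate 1 or WT replicate 2. Coro1c was 0.16 at 72 h HCM with length offsets, and Coro2a was -0.00588 there without TMM factors. At low levels, Wipf1 and Wasf3 were listed at 0 CPM in all 3 PKP4-KO libraries at 24 h HCM and at means of 0.630 and 0.472 CPM in WT, and Gmfg was at 0.0959 and 0.597 CPM, a call lost without PKP4-KO replicate 1 or 3 or WT replicate 3.

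The 8 subunit genes did not vary as a unit over the 12 group means. Pearson's r of each member with the mean of the other subunits was 0.76 for Arpc1a, 0.68 for Arpc5 and 0.54 for Wasl, between 0.17 and 0.23 for Actr2, Actr3, Arpc2, Arpc3 and Wasf2, 0.00 for Arpc1b and -0.45 for Arpc4. Outside the members, the patterns most like the mean of the 8 subunits were those of Eps8l1 (0.98), Arhgap27os1 (0.98), Rnh1 (0.98), Por (0.98) and Tgfa (0.98), the highest r among 15114 genes. The 12 means share 1 scaling and the differences in long genes given above, so that these correlations are a description. Around the members, the median log2 fold change of the tested genes within 5 Mb in PKP4-KO was -0.02, -0.44, -0.33 and -0.44 for Actr2 (48 genes), 0.18, 0.44, 0.28 and 0.48 for Wasl (27 genes) and 0.02, -0.14, 0.07 and 0.00 for Arpc1a (99 genes), in the order used above, and the value of each of these members was below that of its neighbourhood in all 4 conditions. The same held for Actr3 and Wasf2, which were called in PKP4-KO against WT in no condition. The neighbourhood of Arpc3 (110 genes) had medians of -0.40, -0.70, -0.35 and -0.57.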

How the data were processed

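Strand-specific libraries of poly(A) RNA were sequenced from both ends. The authors used HISAT2 2.1.0 for alignment to mm39 plus the GFP-PKP4 sequence, SAMtools 1.10 for removing secondary alignments and featureCounts 2.0.0 with Ensembl's GRCm39 genes for counting. The deposited values are raw counts per gene without normalization; the strand setting of the counting is not given in the sources used here. All 36 columns were matched to the labels. From the counts, edgeR 4.0.16 in R 4.3.3 was run here on 1 model of the 12 group means, after filterByExpr and with TMM factors, and its quasi-likelihood test was used, and p-values were adjusted after Benjamini and Hochberg over the 15114 tested genes with a threshold of 0.05. CPM values are scaled with the TMM factors, and CPM per kb uses the gene lengths of the table. Replicates of a group differed by a chi-square of at least 7.03 per gene, so that none was a copy of another. Intervals of levels are SDs of 3 libraries. The shares of Arpc1b were tested with an exact two-sided permutation test. The edgeR fit was tested on counts simulated for 1 comparison, and the other steps were not tested in this way. The simulated counts had the same spread setting for all genes and no trend with gene length between libraries. They therefore do not cover the differences between libraries given above. Positions and promoters came from a GRCm39 reference whose annotation holds 98.9% of the 55358 genes.

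The members and gene lists were chosen with earlier results of these data known. The text names all 10 members, the 6 genes of the pathway list with the largest fold change among those called in PKP4-KO at 24 h HCM, the 5 genes most like the subunits, Pkp4 and the cell type markers; the other pathway genes were named after their values were seen. A gene of that list is not reported here and was left out of its counts. The alternatives were RLE size factors, library sizes without TMM factors, DESeq2 1.42.0, no filter on low counts or a minimum of 10 in every library, a fit of only the groups compared, the replicate number as a block and each library left out in turn. Leaving out the 6 libraries with a low share of counts on long genes, the offsets for gene length (a lowess with a span of 0.4) and all alternatives for pathway genes were added after seeing the data.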

Additional observations from a re-analysis of the deposited data

Results flagged for a closer look

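The effect of PKP4-KO in HCM differed between 72 h and 24 h for 2 members by a test of the difference itself (edgeR quasi-likelihood test). For Arpc1a, the log2 fold change against WT was -0.95 at 24 h and -0.35 at 72 h, a difference of 0.60 (SE 0.16; adjusted p = 0.00604). It was called in all 12 fits that left out a library, at 0.53 to 0.71, and was -0.22 with library sizes in place of TMM factors. For Arpc4, the log2 fold change was -0.01 at 24 h and 0.59 at 72 h, a difference of 0.60 (SE 0.20; adjusted p = 0.0281). It was called in 6 of the 12 fits that left out a library, at 0.51 to 0.66, and was -0.22 with library sizes in place of TMM factors. The calls on Arpc4 were lost without PKP4-KO replicate 3 or WT replicate 1 or 2 at 72 h HCM and without PKP4-KO replicate 3 or WT replicate 2 or 3 at 24 h HCM. The PKP4-KO libraries at 72 h HCM are those with the lowest TMM factors and the smallest share of counts on long genes, whose part in either difference was not tested.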

How the results depend on the processing

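The 80 fold changes of members against WT were recomputed under 1200 alternatives: 1040 kept direction and side of the threshold, 127 lost a call, 29 gained one and 4 reversed. Reversed without TMM factors were Arpc2 (-0.43), Arpc4 (-0.16) and Wasf2 (-0.75) in PKP4-KO and Arpc2 (0.31) in Rescue, against WT at 72 h HCM. Of 2615 alternatives for pathway genes, 9 reversed, all at 72 h: with length offsets Coro1c (0.16) and Fnbp1 (0.16) in PKP4-KO against WT and Coro1c (-0.96) and Fnbp1 (-0.31) in Rescue against PKP4-KO at 72 h HCM and Coro1c (-0.28) in the latter at 72 h LCM, and without TMM factors at 72 h HCM Coro2a (-0.00588) in PKP4-KO against WT and Arpc5l (0.73), Arpin (0.76) and Coro2a (0.73) in Rescue against PKP4-KO.

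Counts of called members moved by over 1.5 times as follows; the cause was not tested. Without TMM factors, PKP4-KO against WT gave 3 in place of 5 at 24 h HCM and 3 in place of 6 at 24 h LCM, Rescue against WT 8 in place of 4 at 72 h HCM and 2 in place of 4 at 72 h LCM, and the differences of the PKP4-KO effect 4 in place of 2. Without a filter, PKP4-KO against WT gave 3 at 24 h HCM and 2 at 24 h LCM, Rescue against WT 0 in place of 2 at 24 h HCM and 2 at 72 h LCM, HCM against LCM 5 in place of 15, and the differences 0. With only the groups compared, PKP4-KO against WT gave 3 and Rescue against WT 0 at 24 h HCM, Rescue against PKP4-KO 1 in place of 4 at 72 h LCM, HCM against LCM 5 and the differences 1. With length offsets, Rescue against PKP4-KO gave 5 in place of 3 at 24 h HCM, 5 in place of 8 at 72 h HCM and 5 in place of 3 at 24 h LCM, HCM against LCM 8 and the differences 4. Rescue against PKP4-KO at 24 h HCM gave 5 also with at least 10 counts and without the 6 libraries, and the differences were 4 with RLE size factors, 6 with DESeq2, 4 with at least 10 counts and 7 without the 6 libraries.

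Without 1 library, the counts in the order 24 h HCM, 72 h HCM, 24 h LCM and 72 h LCM ranged from 3 to 4, 4 to 6, 3 to 6 and 3 to 3 in PKP4-KO against WT, from 0 to 2, 2 to 4, 0 to 2 and 2 to 4 in Rescue against WT, and from 3 to 3, 6 to 8, 1 to 3 and 3 to 5 in Rescue against PKP4-KO. HCM against LCM ranged from 12 to 16, 72 h against 24 h from 10 to 14 and the differences from 1 to 6. Of 36 pairs of same-numbered libraries, 8 deviated together with a correlation over 0.1. In Rescue against PKP4-KO at 72 h LCM this held for all 3 pairs (0.300, 0.718 and 0.375), and the block gave 4 called members there, as without it. In no other comparison did it hold for every pair, so that the numbers are not taken to pair the libraries there. With the replicate block the counts were 4, 6, 5 and 3 in PKP4-KO against WT, 2, 4, 3 and 4 in Rescue against WT, 4, 8, 3 and 4 in Rescue against PKP4-KO, 15 for HCM against LCM, 12 for 72 h against 24 h and 2 for the differences, none of which moved by over 1.5 times. Between genotypes, the calls on members lost with the block were those on Arpc1b at 24 h HCM and Wasl in LCM in PKP4-KO against WT. The differences between groups in the Arpc1b share moved by less than the SD under each alternative. The shares themselves were higher without division by length, for example 55.0% in place of 38.0% in Rescue at 72 h HCM replicate 1. The SEs of Actr2, Actr3 and Arpc3 limit what 3 libraries a group can show for them.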
